A study of Mus musculus with 3 samples.

Results

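The genes described here are 38 genes of glucose uptake, glycolysis, lactate export and the transcriptional response to low oxygen, given as a list of gene names. They were read in single-cell RNA profiles of macrophages from the mouse sciatic nerve, and 33 of the 38 reached 10 CPM or more in at least 1 library, against 7173 of all 27998 genes in the tables. A UMI (unique molecular identifier) is a short tag that lets each captured RNA molecule be counted only once, and CPM is a gene's UMIs scaled to a library total of 1e+06. The data are 3 libraries from C57BL/6 mice, an inbred laboratory strain. They hold nerve macrophages in the steady state, nerve macrophages taken 1 day after a crush of the nerve (day 1), and nerve macrophages taken 5 days after a crush (day 5). No transgene or drug is named in the labels, and the sources used here do not give the number of animals pooled or the way the cells were sorted. Each time has 1 library, so there are no replicates and no test of a condition. Every interval below is at 95% and covers counting error only, and every ratio compares 2 libraries.

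Glycolysis turns glucose into pyruvate in the cytosol and yields ATP without oxygen, and lactate dehydrogenase then regenerates the NAD+ that the pathway uses. Macrophages activated by inflammatory signals are known to take up more glucose and release more lactate than resting ones. The factor HIF-1, whose alpha subunit is encoded by Hif1a, is marked for destruction by prolyl hydroxylases when oxygen is present. When oxygen is low, or during inflammatory activation, it accumulates and binds the core motifs ACGTG and GCGTG near many of these genes.

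The libraries held 718, 2793 and 2051 cells for steady state, day 1 and day 5 after filtering, with 1625316, 7963091 and 5500267 UMIs and a median of 2235, 2555 and 2470 UMIs per cell. The 8 markers of the labelled cell type, macrophages, were all detected in each library. They summed to 34175.5 CPM in steady state, 25930.5 CPM on day 1 and 32948 CPM on day 5, mostly from Lyz2 (21020.5, 19495.6 and 24181.4 CPM). Csf1r was at 765, 239 and 489 CPM in the same order, Adgre1 at 404, 118 and 232 CPM and C1qa at 7925, 1558 and 5216 CPM. Fcgr1 and Cd14 were instead highest at day 1, at 191, 510 and 323 CPM and at 2819, 3027 and 1764 CPM. The 8 monocyte markers summed to 274, 2796 and 1110 CPM in the same order. The 7 Schwann cell markers summed to 314, 56.3 and 64.7 CPM, mostly from Pmp22, with Sox10 at 0 in each library. The 10 neutrophil markers summed to 126, 105 and 39.8 CPM, with Ngp, Camp and Ly6g at 0 in each library. The libraries shared 2 barcodes (steady state and day 1), 3 (steady state and day 5) and 11 (day 1 and day 5). The part of these other cell types in the results below was not tested.

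Promoters are shown for 6 members whose levels are set out below, because HIF-1 is known to act through such motifs. They are the 300 bases from 250 before to 50 after a RefSeq transcript start on GRCm38.p6, the assembly that mm10 names. Pgk1 and Ldha encode enzymes of lower glycolysis and lactate formation, Slc16a3 a lactate exporter and Ankrd37 an ankyrin repeat protein, and all 4 were higher at day 1 than in steady state. Tpi1 encodes an enzyme of upper glycolysis that was also higher at day 1, by 6.46-fold against 4.77-fold for Ldha, and Gpi1 an earlier enzyme that differed little between libraries. Capitals mark ACGTG and GCGTG on the printed strand, or their reverse complements CACGT and CACGC where the motif lies on the opposite strand. The windows are chrX:106186850-106187149 on the plus strand for Pgk1, chr11:120948817-120949116 on the plus strand for Slc16a3 and chr8:45999801-46000100 on the minus strand for Ankrd37. Those of the others are chr7:46845554-46845853 on the plus strand for Ldha, chr6:124814109-124814408 on the minus strand for Tpi1 and chr7:34230287-34230586 on the minus strand for Gpi1.
Pgk1: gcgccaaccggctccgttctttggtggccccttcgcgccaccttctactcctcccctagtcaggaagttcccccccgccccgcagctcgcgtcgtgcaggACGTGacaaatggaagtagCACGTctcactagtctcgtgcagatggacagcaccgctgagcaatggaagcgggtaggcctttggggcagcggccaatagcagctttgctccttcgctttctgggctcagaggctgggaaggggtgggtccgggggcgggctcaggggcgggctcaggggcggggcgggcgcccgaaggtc
Slc16a3: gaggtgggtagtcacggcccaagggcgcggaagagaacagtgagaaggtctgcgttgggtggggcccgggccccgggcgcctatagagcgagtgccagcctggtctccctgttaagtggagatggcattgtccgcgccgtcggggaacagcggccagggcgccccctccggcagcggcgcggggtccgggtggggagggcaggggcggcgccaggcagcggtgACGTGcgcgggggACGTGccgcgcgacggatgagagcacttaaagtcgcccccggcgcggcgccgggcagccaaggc
Ankrd37: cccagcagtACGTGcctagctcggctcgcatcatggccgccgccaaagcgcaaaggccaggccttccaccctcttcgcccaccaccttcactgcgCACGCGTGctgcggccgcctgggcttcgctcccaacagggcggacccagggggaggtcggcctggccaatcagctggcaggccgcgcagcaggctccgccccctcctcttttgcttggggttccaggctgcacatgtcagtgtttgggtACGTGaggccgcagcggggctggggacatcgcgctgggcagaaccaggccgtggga
Ldha: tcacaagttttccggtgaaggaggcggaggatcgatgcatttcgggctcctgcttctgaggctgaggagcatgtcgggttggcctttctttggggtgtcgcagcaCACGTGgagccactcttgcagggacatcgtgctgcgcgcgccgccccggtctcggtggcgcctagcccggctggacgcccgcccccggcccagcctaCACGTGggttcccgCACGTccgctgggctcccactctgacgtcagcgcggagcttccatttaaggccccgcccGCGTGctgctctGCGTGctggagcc
Tpi1: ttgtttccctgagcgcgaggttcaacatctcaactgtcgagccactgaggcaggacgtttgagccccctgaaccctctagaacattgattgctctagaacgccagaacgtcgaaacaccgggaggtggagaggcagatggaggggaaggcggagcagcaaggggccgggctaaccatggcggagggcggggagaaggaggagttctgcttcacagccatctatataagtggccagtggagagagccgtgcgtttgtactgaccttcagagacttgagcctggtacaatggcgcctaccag
Gpi1: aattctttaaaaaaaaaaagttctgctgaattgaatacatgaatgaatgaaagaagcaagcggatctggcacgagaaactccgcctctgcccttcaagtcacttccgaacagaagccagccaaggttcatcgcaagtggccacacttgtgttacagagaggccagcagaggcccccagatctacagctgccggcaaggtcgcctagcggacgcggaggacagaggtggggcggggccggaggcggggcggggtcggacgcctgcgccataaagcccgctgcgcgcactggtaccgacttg

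The Pgk1 window held 2 ACGTG matches, 1 on each strand, and the Slc16a3 window held 2 on the plus strand close to the start. The Ankrd37 window held 2 ACGTG and 2 GCGTG matches. The Ldha window held 5 ACGTG and 2 GCGTG matches, where the palindrome CACGTG counts once on each strand. The Tpi1 and Gpi1 windows held neither motif. RefSeq windows were at hand for 35 of the 38 members, as 50 windows, and not for Bnip3l, Slc2a3 and Ndrg1. Of these 35 members, 33 (94.3%) had ACGTG or GCGTG on either strand in at least 1 window, against 46.7% of 27025 genes in the same table. Counted by window, 84.0% of the 50 member windows held a match, against 43.8% of 32851 windows. For ACGTG alone the shares were 74.3% of members and 21.8% of all genes, and for GCGTG alone 68.6% of members and 35.2% of all genes. Many members were listed as known hypoxia targets and the windows were not matched for base composition, so the shares describe these letters only. Hk2, whose level was similar in the 3 libraries as given below, had 2 ACGTG matches.

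Together the 38 genes made up 0.222% of the UMIs in steady state (interval 0.214 to 0.229), 1.00% at day 1 (0.993 to 1.01) and 0.386% at day 5 (0.381 to 0.392). Their summed level was therefore highest at day 1, and at day 5 it lay above steady state. The 6 highest members carried 65.1% of these UMIs in steady state, 67.7% at day 1 and 64.4% at day 5. Gapdh, Ldha, Aldoa, Eno1 and Pkm were among the 6 in each library, with Gpi1 as the sixth in steady state and Mif as the sixth at day 1 and day 5. These are shares of UMIs, which are not scaled by transcript length, and no order of expression between genes is read from them.

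A filter of 10 CPM in either library was passed by 33 members for this comparison. Of these, 26 were at least 2-fold higher at day 1 than in steady state and 0 were 2-fold or more lower. Over all 7008 genes that passed, 16.7% were at least 2-fold higher and 14.8% were lower by as much. The median log2 ratio was 2.25 over the members and 0.12 over all genes. The members were chosen with earlier results of these data known. Their counts here and below therefore describe this list and are not an independent result. 9 of the 33 members passed only through their day 1 level, so these had to be higher there, and 5 members under 10 CPM in every library are left out of the count. Just inside that limit were Hk1, highest at 12.3 CPM in steady state, and Kdm3a, highest at 12.9 CPM in steady state, and just outside it Aldoc, highest at 6.91 CPM on day 1. The interval of the ratio lay above 1 for 27 members, below 1 for 0 and spanned 1 for 6. Intervals were not counted over all genes for this comparison, so these counts have no share to be set beside. Scaling by the median of ratios instead of total UMIs shifts every day 1 against steady state log2 ratio down by 0.12 and every day 5 against day 1 log2 ratio up by 0.10.

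**Figure D1:**
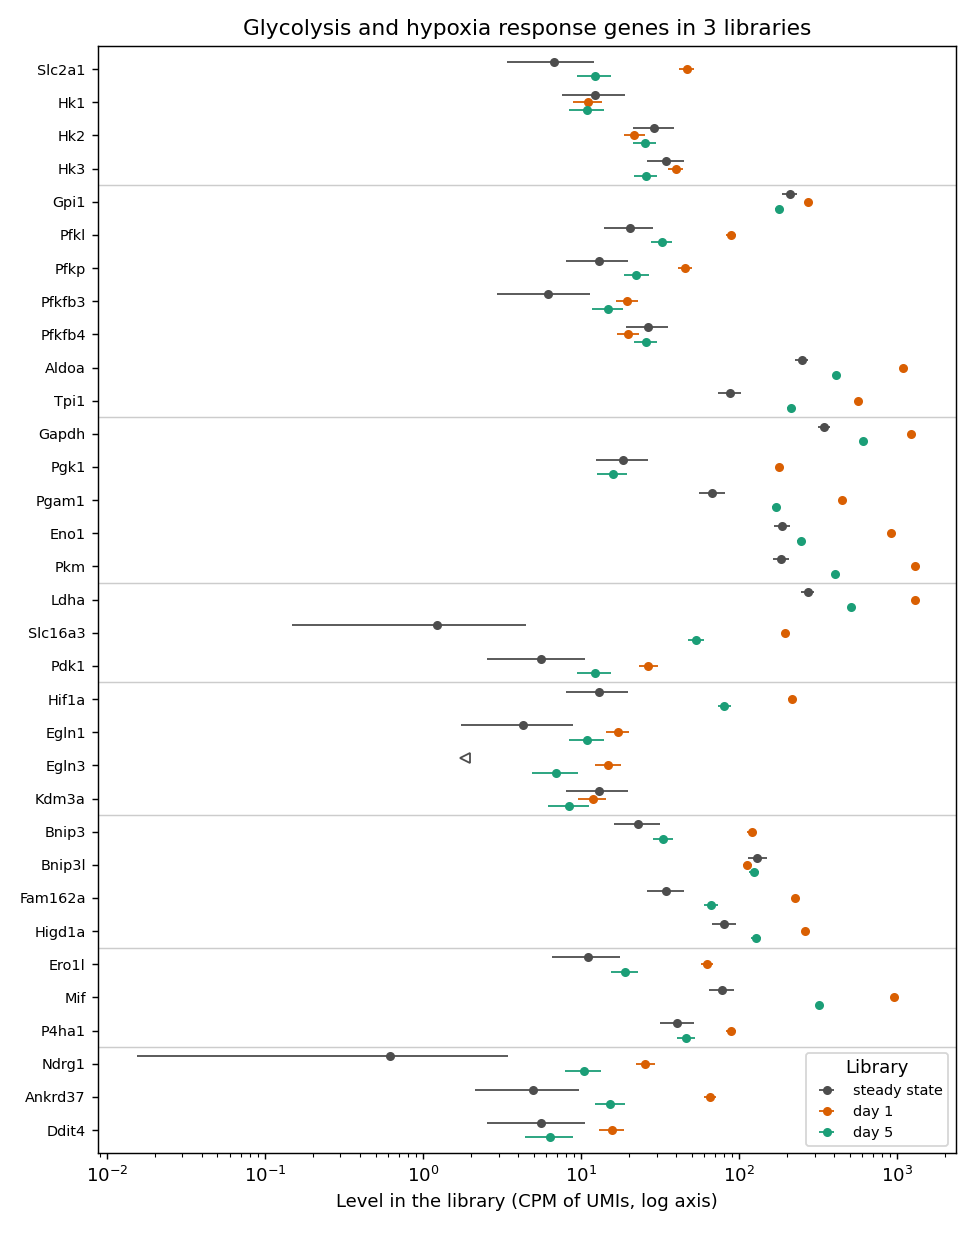
Level of each of the 33 members with 10 CPM or more in any library, in CPM of UMIs on a log axis, for steady state (grey), day 1 (orange) and day 5 (green). Points are library sums with exact Poisson 95% intervals, the open triangle is the 3-count bound of a gene with 0 UMIs, and grey lines part the role groups; the day 1 point stands furthest right for most members, while Hk1, Hk2, Pfkfb4, Kdm3a and Bnip3l have overlapping intervals.

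Glucose enters the cell through transporters and is trapped by hexokinases, and the day 1 interval lay above 1 for a transporter gene but spanned 1 for each hexokinase gene. Slc2a1, which encodes the glucose transporter GLUT1, was at 6.77 CPM in steady state, 46.5 CPM on day 1 and 12.2 CPM on day 5. Its level was 6.87-fold higher at day 1 than in steady state (3.79 to 13.9), and the day 5 interval against steady state spanned 1 (ratio 1.80, 0.944 to 3.78). Of its 11 steady-state UMIs, 4 lay in the 34 cells outside the resident-like clusters described below, and without dendritic and cycling cell-like clusters the day 1 ratio was 10.7 and the day 5 ratio 2.89. Hk1 was at 12.3, 11.1 and 10.9 CPM in order of time, Hk2 at 28.9, 21.7 and 25.3 CPM, and Hk3 at 34.5, 39.6 and 25.6 CPM. The 3 hexokinases, which phosphorylate glucose, had intervals that spanned 1 in both comparisons with steady state. Between day 5 and day 1, Hk3 alone of the 3 had an interval that left 1 out, with a level 1.54-fold lower at day 5 (1.26 to 1.90). The ratio of Slc2a1 at day 1 was 9.14 times that of Hk2 (4.52 to 19.96), a pair chosen after the values were seen. Slc2a3, which encodes the transporter GLUT3, had 5, 14 and 14 UMIs and stayed under 10 CPM.

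The enzymes of upper glycolysis split into several that were higher at day 1 and a pair that was nearly level. Gpi1, whose product turns glucose 6-phosphate into fructose 6-phosphate, was at 209 CPM in steady state, 272 CPM on day 1 and 178 CPM on day 5. Day 1 was thus 1.30-fold above steady state (1.16 to 1.46), and day 5 was 1.17-fold below it (1.03 to 1.33). Phosphofructokinase, which commits sugar to glycolysis, is encoded in its liver form by Pfkl, at 20.3, 88.7 and 32.4 CPM in the steady state, at day 1 and at day 5, and in its platelet form by Pfkp, at 12.9, 45.3 and 22.4 CPM. Both were highest at day 1, 4.37-fold (3.08 to 6.39) and 3.51-fold (2.26 to 5.74) above steady state. Their ratios did not differ beyond counting error, with Pfkl over Pfkp at 1.24 (0.674 to 2.25).

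Pfkfb3 and Pfkfb4 encode bifunctional enzymes that set fructose 2,6-bisphosphate, the activator of phosphofructokinase, and they moved differently. Pfkfb3 was at 6.15, 19.6 and 14.7 CPM in the steady state, at day 1 and at day 5, and 3.18-fold higher at day 1 than in steady state (1.69 to 6.77). Pfkfb4 was at 26.5, 19.8 and 25.6 CPM, with a day 1 interval that spanned 1 (ratio 0.750, 0.532 to 1.08). The ratio of Pfkfb3 was 4.25 times that of Pfkfb4 (2.005 to 9.78), again a pair chosen after the values were seen. Pfkfb4 was also the 1 member whose day 5 against day 1 interval lay above 1 (ratio 1.29, 1.02 to 1.63).

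Aldoa and Tpi1 encode the next enzymes, aldolase and triosephosphate isomerase. Aldoa was at 249 CPM in steady state, 1081 CPM on day 1 and 407 CPM on day 5. Tpi1 was at 87.4, 565 and 213 CPM in the same order. Both were higher at day 1 than in steady state, 4.35-fold for Aldoa (3.94 to 4.82) and 6.46-fold for Tpi1 (5.47 to 7.69), and both were still higher at day 5, 1.64-fold (1.47 to 1.82) and 2.44-fold (2.05 to 2.93). Aldoc, a second aldolase gene, had 4, 55 and 10 UMIs and stayed under 10 CPM.

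The 5 genes of lower glycolysis were all at least 2-fold higher at day 1 than in steady state and at least 2-fold lower at day 5 than at day 1, the narrowest being Gapdh at 2.04-fold lower (1.96 to 2.12). Gapdh, whose product makes the pathway's NADH, was at 344 CPM in steady state, 1229 CPM on day 1 and 604 CPM on day 5, a 3.57-fold higher level at day 1 than in steady state (3.28 to 3.90). Pgam1, which encodes phosphoglycerate mutase, was at 67.7, 449 and 171 CPM and 6.63-fold higher at day 1 (5.48 to 8.09). Eno1, which encodes enolase, was at 186, 910 and 245 CPM and 4.90-fold higher at day 1 (4.36 to 5.51). Pkm, which encodes the pyruvate kinase that forms pyruvate and ATP, was at 185, 1298 and 405 CPM and 7.03-fold higher at day 1 (6.27 to 7.91). At day 5 these 4 genes still stood above steady state, between 1.32-fold for Eno1 (1.16 to 1.50) and 2.53-fold for Pgam1 (2.07 to 3.11).

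Pgk1, which encodes phosphoglycerate kinase, the first ATP-forming step, did not share that day 5 level. It was at 18.5 CPM in steady state (30 UMIs), 180 CPM on day 1 (1430 UMIs) and 15.8 CPM on day 5 (87 UMIs). Its day 1 level was 9.73-fold above steady state (6.78 to 14.5), its day 5 level was 11.4-fold below day 1 (9.14 to 14.3), and the day 5 interval against steady state spanned 1 (ratio 0.857, 0.560 to 1.34). Set against Gapdh, the Pgk1 ratio was 2.72 times as large for day 1 over steady state (1.88 to 4.09) and 0.179 times as large for day 5 over day 1 (0.142 to 0.224). The pair of Pgk1 and Gapdh was not planned in advance. Near-identical copies are listed separately in the tables, and reads can be split between them. Pgk1-rs7 was at 0.615, 10.0 and 1.45 CPM in the steady state, at day 1 and at day 5 and the Eno1 copy Eno1b at 12.9, 81.6 and 10.0 CPM, so each was highest in the same library as its parent gene. The aldolase copies Aldoart1 and Aldoart2 stayed at or under 2.26 CPM. Other members, Gapdh among them, have processed copies in the mouse genome, so their counts are uncertain to that extent.

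The genes of pyruvate and lactate handling held the widest ratio of the list. Ldha, which encodes the lactate dehydrogenase subunit that favours lactate, was at 271 CPM in steady state, 1295 CPM on day 1 and 509 CPM on day 5. Slc16a3, which encodes the lactate exporter MCT4, had 2 UMIs in steady state (1.23 CPM) and was at 196 CPM on day 1 and 53.6 CPM on day 5. Its day 1 against steady state ratio was 159 (43.9 to 1314) and its day 5 against steady state ratio 43.6 (12.0 to 362), both resting on those 2 UMIs. With equal weight per cell the ratios were 96.5 and 25.2. Pdk1, which encodes a kinase that holds back pyruvate dehydrogenase, was at 5.54, 26.6 and 12.2 CPM. Ldha was 4.77-fold higher at day 1 (4.34 to 5.26) and 1.88-fold higher at day 5 (1.70 to 2.08) than in steady state. Pdk1 was 4.81-fold (2.49 to 10.7) and 2.20-fold (1.09 to 5.02) higher.

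Among the genes of oxygen sensing, Hif1a itself was high after crush. It was at 12.9 CPM in steady state, 215 CPM on day 1 and 80.4 CPM on day 5, which was 16.6-fold higher at day 1 (10.8 to 26.9) and 6.22-fold higher at day 5 (4.02 to 10.1) than in steady state. Egln1 and Egln3 encode prolyl hydroxylases that mark the HIF alpha subunits. Egln1 was at 4.31, 17.1 and 10.9 CPM in the steady state, at day 1 and at day 5, and 3.97-fold higher at day 1 than in steady state (1.87 to 10.1). Egln3 had 0 UMIs in steady state, which by 3 counts allows 1.85 CPM, and was at 14.8 CPM on day 1 and 6.91 CPM on day 5. Against those 3 counts it was 8.03-fold higher at day 1 and 3.74-fold higher at day 5, and the exact intervals of the ratios start at 6.43 and 2.90. Kdm3a, a histone demethylase gene known as a HIF-1 target, was at 12.9, 11.8 and 8.36 CPM, with intervals that spanned 1 in all 3 comparisons. The day 1 against steady state ratio of Hif1a was 18.2 times that of Kdm3a (9.07 to 36.3), a pair not planned in advance.

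The members whose products act in mitochondria differed among themselves. Bnip3 and Bnip3l encode related receptors for the removal of mitochondria by autophagy. Bnip3 was at 22.8 CPM in steady state, 120 CPM on day 1 and 32.9 CPM on day 5. Bnip3l was at 130, 112 and 124 CPM in the same order. Bnip3 was 5.27-fold higher at day 1 than in steady state (3.79 to 7.53), while the Bnip3l interval spanned 1 (ratio 0.860, 0.739 to 1.00). Their ratios differed 6.13-fold (4.25 to 9.04), a comparison not planned in advance. Fam162a, a mitochondrial gene induced by hypoxia, was at 34.5, 226 and 66.7 CPM and 6.55-fold higher at day 1 than in steady state (5.02 to 8.71). Higd1a, which encodes a respiratory chain-associated protein, was at 80.0, 259 and 128 CPM and 3.24-fold higher (2.72 to 3.90). Ak4, a mitochondrial adenylate kinase gene, had 0, 11 and 0 UMIs.

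Among the secreted and secretory pathway members, Mif had the widest day 1 ratio. Mif encodes macrophage migration inhibitory factor, a cytokine, and was at 77.5 CPM in steady state, 959 CPM on day 1 and 319 CPM on day 5. That was 12.4-fold (10.4 to 14.9) and 4.11-fold (3.43 to 4.97) above steady state. The day 1 ratio of Mif was 3.46 times that of Gapdh (2.84 to 4.24), a pair not planned in advance. Ero1l, which encodes an oxidase for disulfide bonds in the endoplasmic reticulum, was at 11.1, 62.8 and 18.9 CPM, which was 5.67-fold (3.55 to 9.65) and 1.71-fold (1.03 to 2.99) above steady state. P4ha1, which encodes a subunit of collagen prolyl 4-hydroxylase, was at 40.6, 88.5 and 46.2 CPM and lay 2.18-fold higher at day 1 than in steady state (1.69 to 2.85), with a day 5 interval that spanned 1 (ratio 1.14, 0.864 to 1.51). P4ha2 had 0, 20 and 8 UMIs, and Adm, which encodes the peptide adrenomedullin, had 0, 4 and 1.

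The remaining hypoxia response members were low in steady state. Ankrd37 was at 4.92 CPM in steady state, 65.7 CPM on day 1 and 15.3 CPM on day 5, and 13.3-fold higher at day 1 than in steady state (6.72 to 31.1), or 21.8-fold with equal weight per cell. Ndrg1, a stress-induced gene, had 1 UMI in steady state and was at 25.5 CPM on day 1 and 10.4 CPM on day 5. Its day 1 against steady state ratio of 41.4 rests on that UMI and has an interval of 7.35 to 1644. Ddit4, whose product restrains mTORC1 signalling, was at 5.54, 15.6 and 6.36 CPM and 2.81-fold higher at day 1 (1.43 to 6.29), with a day 5 interval that spanned 1 (ratio 1.15, 0.541 to 2.72).

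**Figure D2:**
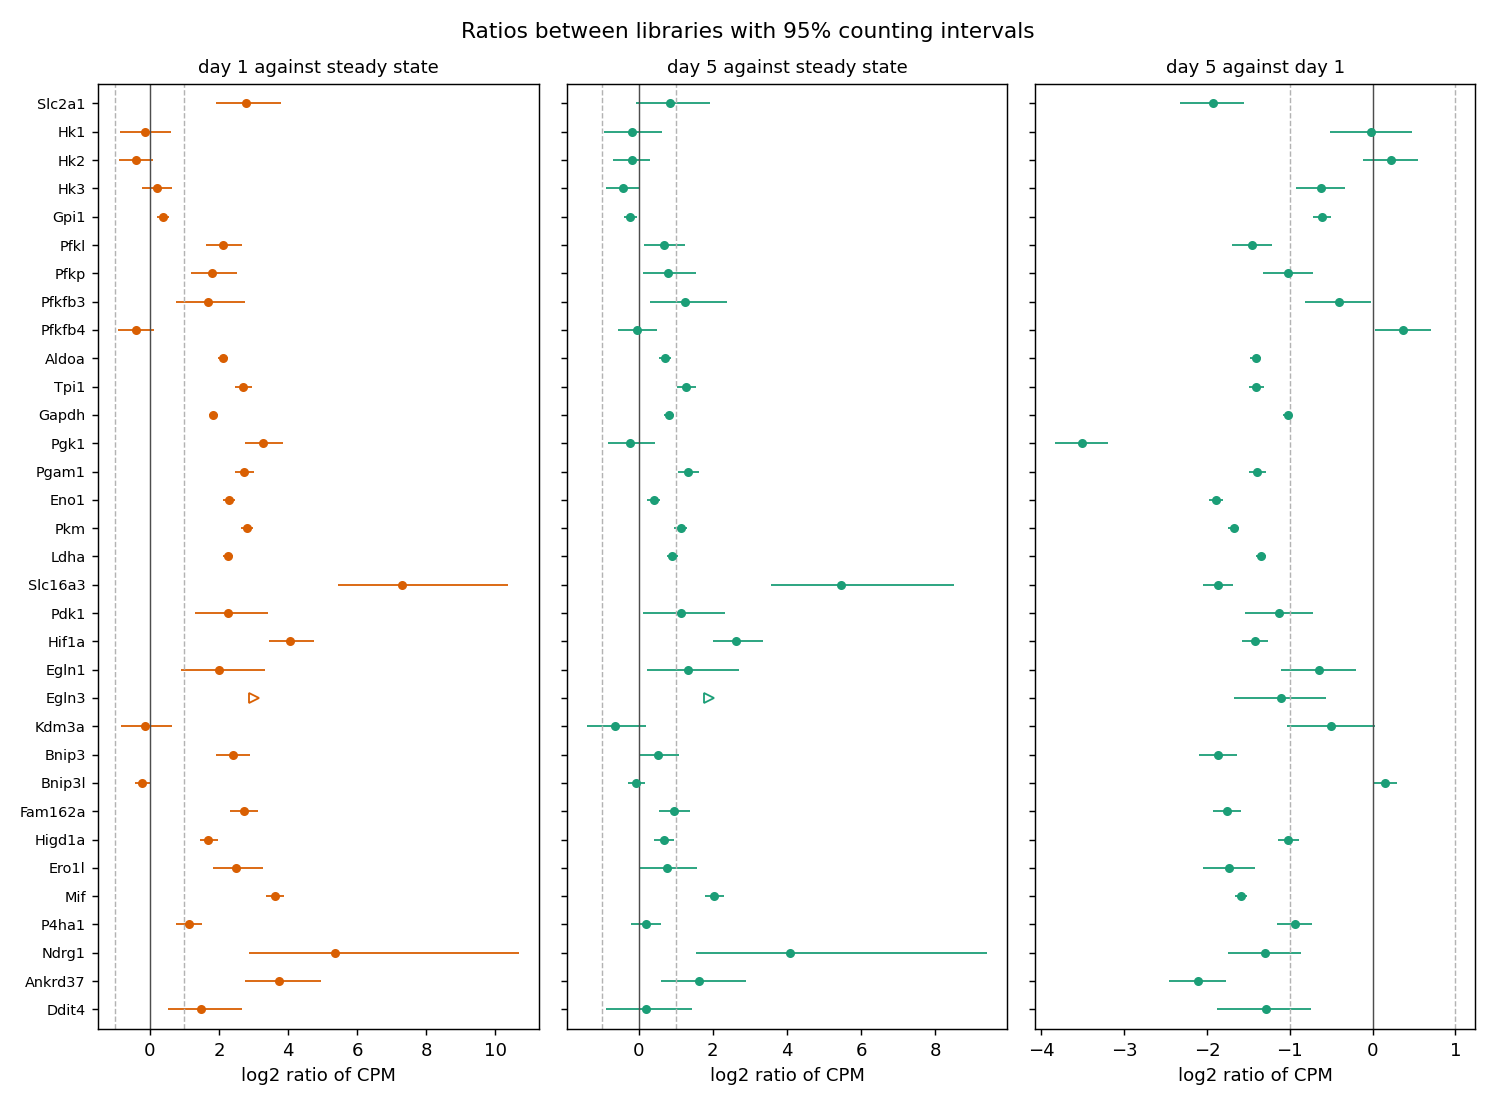
Log2 ratio of CPM of each member for day 1 against steady state, day 5 against steady state and day 5 against day 1, with 95% counting intervals; each panel has its own horizontal scale. Solid lines mark equal levels and dashed lines 2-fold, and the open triangles for Egln3 are bounds from 3 counts; 26 members lie beyond 2-fold on the right of the first panel and 23 beyond 2-fold on the left of the last.

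At day 5, 11 of 31 members that passed were at least 2-fold higher than in steady state and 0 were at least 2-fold lower, against 10.0% and 11.0% of 6846 genes. The median log2 ratio was 0.79 over the members and 0.01 over all genes, and 7 of the 31 passed only through their day 5 level. Between day 5 and day 1, 23 of 33 members were at least 2-fold lower at day 5 and 0 at least 2-fold higher, against 5.47% and 4.93% of 6653 genes. Egln3, Ddit4 and Kdm3a passed only through their day 1 level, so these had to be lower at day 5, and 2 of them are among the 23. The median log2 ratio there was −1.30 over the members and −0.10 over all genes. The interval of that ratio lay below 1 for 28 members, spanned 1 for 4 and lay above 1 for Pfkfb4. Here too, intervals were not counted over all genes. Under median-of-ratios scaling 19 members were at least 2-fold lower, as Gapdh, Pfkp, Higd1a and Egln3 were only slightly beyond 2-fold.

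The part of the day 1 excess over steady state that was present at day 5 varied from gene to gene. Over the 27 members with a day 1 interval above 1, the median was 23.2% of that excess, and 25 members had under 50% of it. Pfkfb3 had 63.8% and Egln1 51.7%, the largest shares. The shares of Pgk1, at −1.64%, and Gpi1, at −49.0%, were negative, and Eno1 had 8.21%. The comparisons share libraries, so these shares carry the counting error of all 3 and are given as a description. The 27 members were chosen by the same day 1 excess, which favours a smaller day 5 share. Genes outside the list chosen in that way were not looked at.

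Cell by cell, the difference between libraries was spread over most cells. With each cell thinned to 1000 UMIs, the members made up a median of 0.2% of a cell's UMIs in steady state (628 cells), 0.9% at day 1 (2496 cells) and 0.3% at day 5 (1769 cells). The middle 50% of cells ran from 0.1 to 0.3%, from 0.5 to 1.3% and from 0.2 to 0.5%. Thinning left out 90, 297 and 282 shallower cells, and without thinning the medians were 0.196%, 0.849% and 0.304%. A share of 0.5%, the 95th percentile of steady-state cells, was exceeded by 3.98% of steady-state cells, 73.2% of day 1 cells (71.5 to 74.97) and 20.2% of day 5 cells (18.3 to 22.1). The highest steady-state cell, at 1.1%, was exceeded by 31.5% of day 1 cells and 2.77% of day 5 cells. No member UMI was left after thinning in 15.6% of steady-state cells, 1.08% of day 1 cells and 7.91% of day 5 cells. At full depth, a median of 3, 9 and 5 members were detected per cell in steady state, day 1 and day 5.

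**Figure D3:**
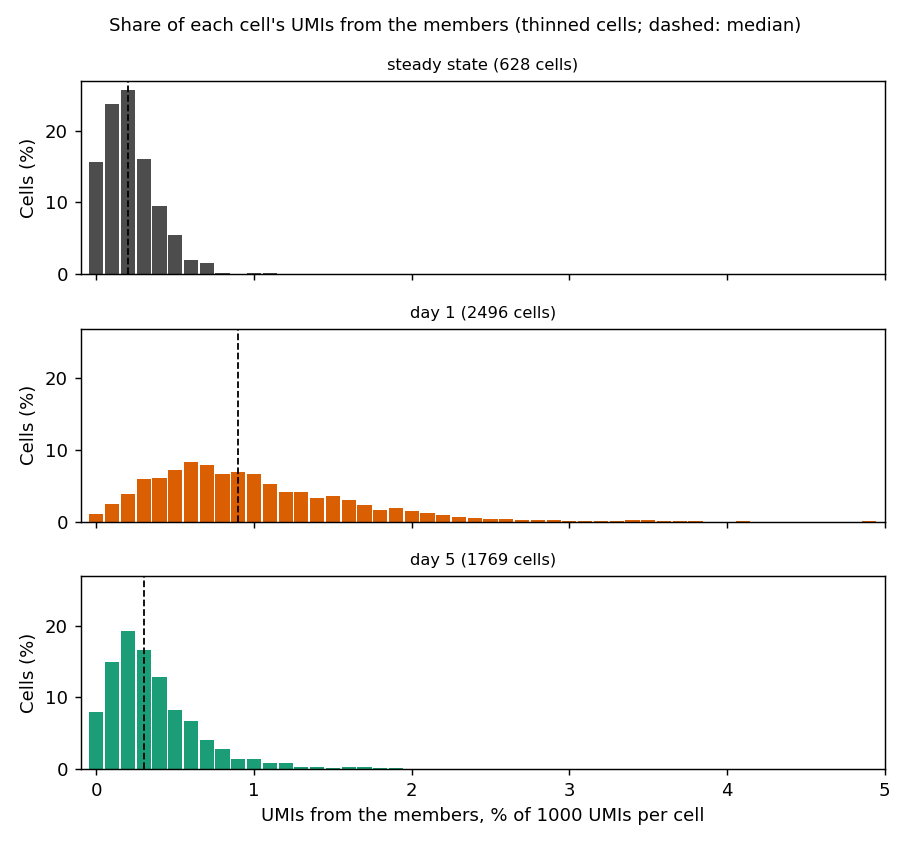
Share of each cell's UMIs that came from the 38 members, in percent of 1000 UMIs per cell after thinning, against the percent of cells, for steady state, day 1 and day 5 from top to bottom. Dashed lines mark the medians of 0.2%, 0.9% and 0.3%; the day 1 cells spread up to 4.9%, and the steady-state cells end at 1.1%.

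The kinds of cells in the libraries differed, so levels were also read within clusters that were made without the members and the pathway genes named further on. Copies such as Eno1b and Pgk1-rs7, and hypoxia genes on neither list, were not left out. The clusters may therefore not be fully independent of the members. Cluster 1 was epineurial macrophage-like, led by Cd209f and Cd209g, and cluster 6 Cx3cr1 resident macrophage-like, led by Lilra5 and Hpgd. These resident-like clusters together held 684 of 718 steady-state cells, 40 of 2793 day 1 cells and 121 of 2051 day 5 cells. Cluster 1 gave 196, 28 and 72 of them and cluster 6 gave 488, 12 and 49, so their mix differed. Cluster 8 was cycling cell-like, and the others stayed unnamed. Cluster 3 was led by Pf4 and Ppbp, cluster 4 by Slpi, Slc7a11 and Mmp12, and cluster 7 by the interferon response genes Rsad2 and Cxcl10. Cluster 9 was led by Stard6 and Ch25h, cluster 10 by Lrg1 and Dmkn, and cluster 11 by Ppbp and Arg1. The Cx3cr1 resident marker Ccl12 and the epineurial marker Lyve1 were also among the 10 leading genes of cluster 9. Those of cluster 10 included the dendritic cell markers Ccr7, Ccl17 and Napsa and the monocyte markers Hp and Chil3. Clusters 2, led by Olfml2b and Ccl8, and 5, led by Gdf15 and Apoe, held 767 and 987 of the day 5 cells. Cx3cr1 itself was among the 10 leading genes of cluster 5 and not of cluster 6. The name of cluster 6 is that of its marker list and does not mean that Cx3cr1 sets it apart. Since clusters 3, 4 and 11 held 0 steady-state cells, time and cell kind cannot be told apart in the library sums.

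Within the resident-like cells, the member share was 0.218% in steady state (0.211 to 0.226), 0.355% at day 1 (0.310 to 0.403) and 0.216% at day 5 (0.197 to 0.237). The cells outside these clusters had 0.268% in steady state, 1.01% at day 1 and 0.393% at day 5. The day 1 value in resident-like cells rests on 40 cells and was 0.450% at clustering resolution 0.5, where 145 cells fell into those clusters. RNA that leaks from other cells was not subtracted. Arg1, a gene of the other day 1 cells, was at 353 CPM in the day 1 resident-like cells, 4517 CPM in the other day 1 cells and 0.658 CPM in the steady-state resident-like cells, and its part in the member share was not tested.

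Gene by gene in the resident-like cells, 11 of 33 members had a day 1 against steady state interval above 1, 0 below 1 and 21 that spanned 1, and Egln3 had 0 UMIs in both. Over all 7173 genes with 10 CPM or more in any library, 10.9% had an interval above 1 there and 3.69% below 1. The 11 were Slc2a1, Gpi1, Pfkp, Gapdh, Pkm, Ldha, Slc16a3, Higd1a, Mif, Ndrg1 and Ddit4. The mix of clusters 1 and 6 differed between libraries, and its part in the day 1 and day 5 ratios was not tested. Within cluster 1 alone, Gapdh was at 475 CPM at day 1 and 427 CPM in steady state. Ldha was at 642 and 342 CPM there, Mif at 238 and 123 CPM and Higd1a at 238 and 166 CPM. Slc2a1 was at 92.1 CPM (6 UMIs) in the day 1 resident-like cells and 4.60 CPM (7 UMIs) in the steady-state ones, a ratio of 20.01 (5.56 to 69.5). The 28 day 1 cells of cluster 1 had 0 Slc2a1 UMIs, so all 6 lay in the 12 day 1 cells of cluster 6. Ldha was at 522 and 274 CPM in the same order, a ratio of 1.91 (1.30 to 2.71), and Mif at 184 and 74.3 CPM, a ratio of 2.48 (1.24 to 4.50). Aldoa, by contrast, was at 246 and 249 CPM, with an interval that spanned 1. At day 5, Ldha, Hif1a, Mif and Ndrg1 were above steady state in resident-like cells, Gpi1, Aldoa and Eno1 were below, and the other 26 intervals spanned 1. Over all genes the shares at day 5 were 12.4% above 1 and 8.04% below 1, so the 4 and 3 of 33 members lie near them. Hif1a was at 69.0 CPM in day 5 resident-like cells (15 UMIs) and 11.2 CPM in steady-state ones (17 UMIs), a ratio of 6.17 (2.87 to 13.1). Eno1 was at 101 CPM in day 5 resident-like cells and 183 CPM in steady-state ones, a ratio of 0.554 (0.341 to 0.855).

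**Figure D4:**
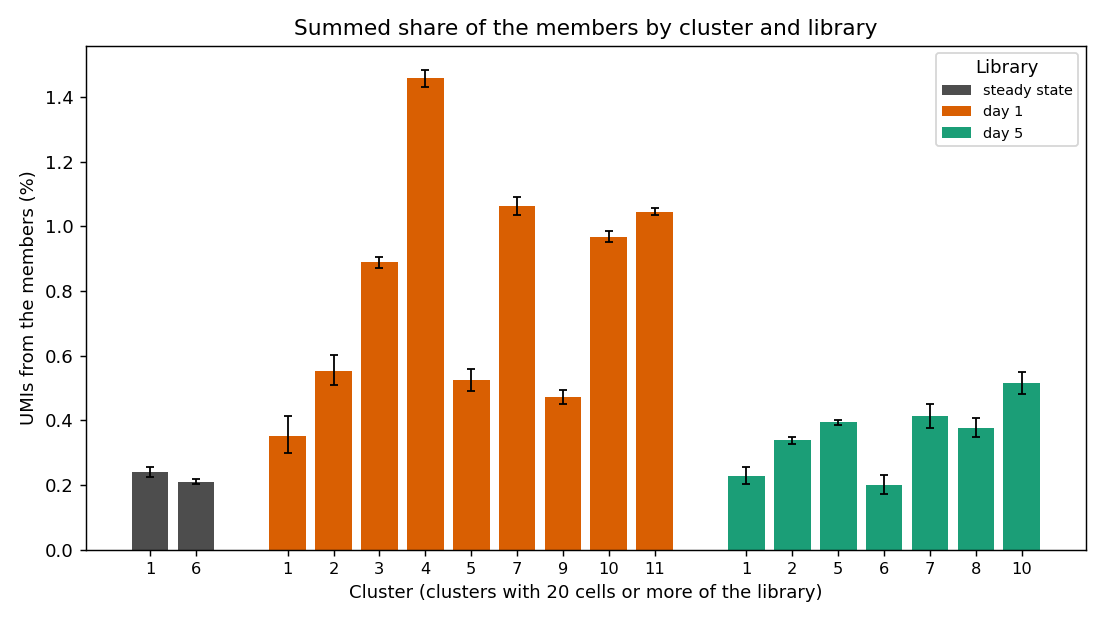
Percent of UMIs from the 38 members in each cluster with 20 cells or more of a library, for steady state (grey), day 1 (orange) and day 5 (green); bars are cluster sums with exact 95% counting intervals. The highest bar is day 1 cluster 4 at 1.46%, and the bars drawn for the resident-like clusters 1 and 6 lie between 0.200% and 0.352%. Cluster 6 held 12 day 1 cells and has no day 1 bar, so this range does not cover it there.

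The 2 resident-like clusters could be compared in the steady state. The member share was 0.240% of UMIs in the epineurial-like cells (0.226 to 0.256) and 0.210% in the Cx3cr1-like cells (0.201 to 0.219). Of 33 members, 5 had an interval above 1, 1 below and 27 that spanned 1. Over all 7173 genes 18.5% had an interval above 1 and 13.3% below 1, so the share of members above 1 is near that of all genes. Higd1a was at 166 CPM in epineurial-like cells and 47.3 CPM in Cx3cr1-like cells, a ratio of 3.51 (2.42 to 5.13). Hk1 had a ratio of 3.19 (1.20 to 8.71), Mif of 2.22 (1.51 to 3.27), and Gapdh and Ldha of 1.48 and 1.38. Gpi1 was the 1 member lower in epineurial-like cells, at 145 CPM against 232 CPM in Cx3cr1-like cells, which is 1.60-fold lower (1.21 to 2.15).

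Within day 1, the 6 clusters with at least 100 cells differed several-fold in the same genes. The member share was 1.46% in cluster 4 (1.43 to 1.48), 1.06% in cluster 7, 1.04% in cluster 11, 0.968% in cluster 10, 0.888% in cluster 3 and 0.471% in cluster 9 (0.449 to 0.494). The intervals of clusters 7 and 11 overlapped. Of the 33 members, 17 were highest in cluster 4 and 28 lowest in cluster 9. Of all 6195 genes with 10 CPM or more at day 1, 12.0% were highest in cluster 4 and 27.2% lowest in cluster 9. In cluster 4 Aldoa reached 1835 CPM, against 426 CPM in cluster 9, Pgam1 721 CPM against 132 CPM, and Eno1 1261 CPM against 249 CPM. Cluster 9 nonetheless had 57.2 CPM of Hif1a (34.9 to 88.3), against 12.9 CPM in the steady-state library (7.998 to 19.8).

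Some members had their highest level outside cluster 4. Slc16a3 and Hif1a were highest in cluster 10, at 269 CPM (243 to 298) and 297 CPM (270 to 327), against 25.7 and 57.2 CPM in cluster 9. In cluster 4 they were at 255 CPM (222 to 292) and 212 CPM (182 to 246), so only the Hif1a intervals lay apart. Cluster 10 had leading genes of both monocytes and dendritic cells, and which of its cells carried Slc16a3 and Hif1a was not tested. Fam162a and Higd1a were highest in cluster 3, at 375 and 344 CPM, against 144 CPM of Fam162a in cluster 10 and 166 CPM of Higd1a in cluster 9. In cluster 4 they were at 347 CPM (308 to 390) and 323 CPM (285 to 364). These intervals overlapped those of cluster 3 (341 to 411 and 311 to 379). Ankrd37 and P4ha1 were highest in cluster 7, at 100 and 133 CPM, and lowest in cluster 9, at 17.2 and 54.3 CPM. In cluster 4 they were at 96.8 and 117 CPM, with intervals that overlapped those of cluster 7. Hk3, a hexokinase gene, was the 1 member of 33 highest in cluster 9, against 30.5% of all 6195 genes. It was at 65.8 CPM there (41.7 to 98.7) and 27.6 CPM in cluster 10. In cluster 4 it was at 41.1 CPM (28.5 to 57.5), which overlapped cluster 9. Bnip3l, which was level between the libraries, was at 226 CPM in cluster 4 and 62.9 CPM in cluster 9. Cells in cluster 3 were shallow, with a median of 1341.5 UMIs in day 1 cells against 2669 in cluster 4, and the part of depth in these differences was not tested.

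**Figure D5:**
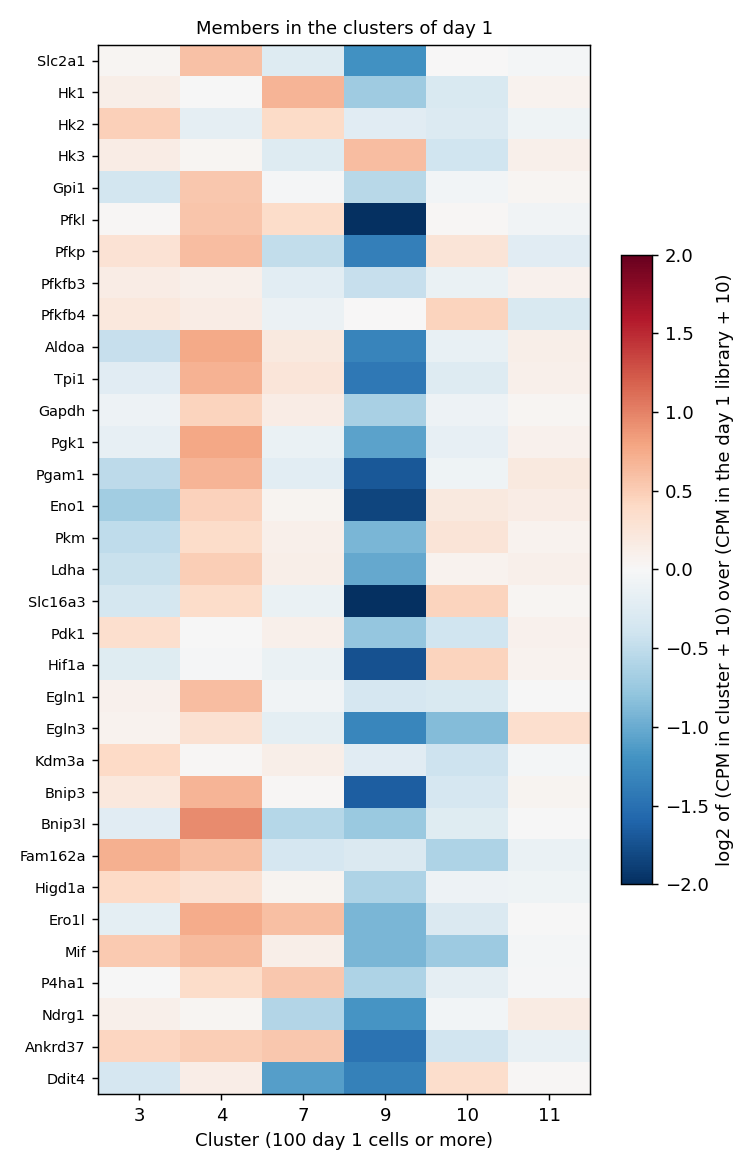
Members (top to bottom by role) in the 6 clusters with 100 day 1 cells or more, as log2 of the cluster CPM plus 10 over the day 1 library CPM plus 10, red above and blue below the library. Cluster 4 is red for most members and cluster 9 blue for most, while Slc16a3 and Hif1a are highest in cluster 10 and Hk3 in cluster 9. Of these, only Hif1a had a counting interval, not drawn here, apart from that of cluster 4.

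Genes of the same and neighbouring pathways that are not on the list had smaller median ratios. The members and these lists were chosen with earlier results of these data known, so the contrast between them is a description only. Of 7 other glycolysis genes that passed, 1 was at least 2-fold higher at day 1 than in steady state and 2 were lower by as much, with a median log2 ratio of 0.08. None of them reached 50 CPM in a library, the level set for naming. Of 18 other hypoxia genes, 4 were higher and 4 lower at day 1 by 2-fold or more, with a median of 0.13. Vegfa, which encodes the vascular growth factor VEGF-A, was at 80.0 CPM on day 1 and had 0 UMIs in steady state. Against 3 counts Vegfa was 43.3-fold higher at day 1, and the exact interval of the ratio starts at 35.1. Cited2, whose product competes with HIF-1 for a coactivator, was at 91.9 CPM on day 1 and 341 CPM in steady state, 3.71-fold lower (3.32 to 4.15). Wsb1, a ubiquitin ligase subunit gene known to respond to hypoxia, was at 56.8 and 153 CPM in the same order, 2.70-fold lower (2.30 to 3.16).

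The pentose phosphate pathway, which branches from glycolysis and makes NADPH, had 3 of 7 genes at least 2-fold higher at day 1 and 0 lower, with a median log2 ratio of 0.81. Pgd was at 129 CPM on day 1 and 53.5 CPM in steady state, 2.41-fold higher (1.93 to 3.03), and Taldo1 at 488 and 218 CPM, 2.24-fold higher (2.01 to 2.50). Tkt was at 175 CPM on day 1 and 99.7 CPM in steady state, 1.76-fold higher (1.49 to 2.08). Of 28 genes of pyruvate dehydrogenase and the tricarboxylic acid cycle, 2 were at least 2-fold higher and 3 lower, with a median of 0.21. Got1, an aspartate aminotransferase gene of the malate-aspartate shuttle, was at 89.4 CPM on day 1 and 16.6 CPM in steady state, 5.38-fold higher (3.67 to 8.23). Mdh2, a malate dehydrogenase gene, was 2.29-fold higher (2.01 to 2.62), and Idh3g, a subunit gene of isocitrate dehydrogenase, 2.37-fold lower at day 1 (1.97 to 2.86).

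Of 39 respiratory chain genes, 15 were at least 2-fold higher at day 1 than in steady state and 0 lower, with a median log2 ratio of 0.89. Cycs, which encodes cytochrome c, was at 449 CPM on day 1 and 113 CPM in steady state, 3.97-fold higher (3.42 to 4.63). Atp5g1, an ATP synthase subunit gene, was 2.78-fold higher (2.51 to 3.10), and Cox7a2, a cytochrome c oxidase subunit gene, 2.77-fold higher (2.45 to 3.13). At day 5 against steady state the member median was 0.79, near the 0.67 of the respiratory chain. The medians of the lists were −0.39 for other glycolysis genes, −0.15 for other hypoxia genes and 0.53 for the pentose phosphate pathway. Those of pyruvate dehydrogenase and the cycle and of the respiratory chain were −0.05 and 0.67. Between day 5 and day 1 these medians were −0.12, −0.14, −0.29, −0.15 and −0.26, against −1.30 for the members. Cycs was at 196 CPM on day 5 and 449 CPM on day 1, 2.29-fold lower (2.14 to 2.46), the 1 respiratory chain gene of 39 that was at least 2-fold lower.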

How the data were processed

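Single-cell RNA was measured in 3 libraries of sciatic nerve macrophages, 1 per time. The deposited tables hold whole-number UMI counts per gene and cell barcode, not normalized. Per the submitters' processing notes they were made with Cell Ranger 2.0.2 on mm10, and the labels name 10x Genomics v1. A deposited table that pools the libraries was not used. The sources used here do not say whether free RNA or doublets had been removed.

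Barcodes with at least 200 genes and at most 10% mitochondrial UMIs were kept, which removed 6 of 5586. Scrublet in scanpy 1.11.5 called 18 of 5580 cells (0.323%) doublets, and these were dropped. That rate is too low to rely on, so doublets remain possible. UMIs were summed per library or cluster and scaled to CPM. Each CPM has an exact Poisson interval, each ratio an exact conditional binomial interval and each share an exact Clopper-Pearson interval (scipy 1.17.1). The ratio step was tested on simulated data. A count of 0 was replaced by 3 counts as a bound. With 1 library per time no p-value was computed.

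Cells were clustered together (Leiden, resolution 1, 2000 variable genes without members and pathway genes, 30 principal components, 15 neighbours, python-igraph 0.11.9). A cluster was named from marker lists if at least 3 markers of a class were 2-fold above the other clusters (offset 10 CPM), at least 2 of them were among its 10 leading genes, and no other class had 2 there. That rule was set after the clusters were seen. Resident-like means the 2 macrophage-like clusters. Names rebuilt this way can differ from the study's.

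Every member with 10 CPM in a library is named, as are up to 3 genes per pathway list with the widest ratio among those with 50 CPM. The members, lists and markers were chosen with earlier results of these data known. None of the gene pairs whose ratios were compared was planned in advance. Promoters came from RefSeq on GRCm38.p6, where all 38 members matched a gene, Ero1l under the symbol Ero1a. Alternatives were other scalings, filters, cell sets, weights, fold limits, resolutions and thinning depths.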

Additional observations from a re-analysis of the deposited data

Results flagged for a closer look

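Gpi1, the isomerase gene of upper glycolysis, lay on opposite sides of its steady-state level at the 2 times after crush. The ratio was 1.30 for day 1 against steady state (1.16 to 1.46) and 0.853 for day 5 against steady state (0.753 to 0.967), so neither counting interval held 1. Set against each other, day 5 was at 178 CPM and day 1 at 272 CPM, and the counting interval of that ratio lay below 1. No test of a condition was possible, as both ratios use the same steady-state library and neither time has a replicate.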

How the results depend on the processing

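No called value changed sign under the alternatives run. Of 97 gene ratios, 7 moved beyond their interval under median-of-ratios scaling, 8 under scaling to genes below 1% of UMIs and 4 with equal weight per cell. None moved beyond it with all deposited barcodes, without the 1% deepest cells, without the dendritic and cycling cell-like clusters of resolution 1.5, or without its fibroblast-like cluster, an alternative chosen after seeing the data. Values that moved by over 1.5 times within wide intervals are given with Slc2a1, Slc16a3 and Ankrd37. Members at least 2-fold higher at day 5 than in steady state numbered 6 with a filter of 50 CPM and 20 at a 1.5-fold limit, against 11. Lower members at day 5 numbered 1 at the 1.5-fold limit, against 0. The median share per cell in steady state was 0.196% unthinned and 0.1% without the 3 highest members, against 0.2%. At day 1 it was 0.7% without Gapdh and 0.5% without the 3 highest, against 0.9%. At day 5 it was 0.304% unthinned, 0.2% at 500 UMIs, 0.35% at 2000 UMIs, 0.2% without Gapdh and 0.2% without the 3 highest, against 0.3%. These steps change which genes or UMIs are counted. The resident-like share at day 1 was 0.450% at resolution 0.5 (145 cells), against 0.355% (40 cells). Cluster 9 of resolution 1 held 115 day 1 cells at 0.471%. Its overlap with the cells added at resolution 0.5 was not tested. No paired analysis was possible because each time has 1 library, and for the same reason no replicate could be left out. Depth limits members near 2 UMIs in steady state.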
